A study of Mus musculus with 12 samples.

Results

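The transcripts described here are those of 9 genes that encode subunits of the channels behind the transient outward and ultrarapid potassium currents, out of 54658 gene names counted in the murine left atrium (LA). They were taken by name from the count table: the Kv4 pore subunit genes *Kcnd2* and *Kcnd3*, the Kv4 accessory subunit genes *Kcnip2* and *Dpp6*, the Kv1 pore subunit genes *Kcna4*, *Kcna5* and *Kcna7*, and the Kv1 beta subunit genes *Kcnab1* and *Kcnab2*. The libraries came from 6 control mice that carried αMHC-rtTA alone (amHC-rtTA in the labels) and 6 littermate iNICD mice that carried αMHC-rtTA with TetO-NICD. The αMHC promoter limits the transactivator to cardiomyocytes, and doxycycline then turns on the Notch1 intracellular domain in iNICD animals. All 12 animals carried the transactivator and received doxycycline chow for 3 weeks with no washout, at 2 to 3 months of age on a mixed genetic background. Each LA was sequenced on its own, the controls being 4 females and 2 males and the iNICD mice 3 of each sex. The animals were separate, and the samples were whole LA tissue with its non-myocytes.

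Voltage-gated potassium channels open on depolarization and return the membrane to its resting potential. The fast transient outward current, Ito, flows through Kv4 channels, which are tetramers of Kv4.2 (*Kcnd2*) and Kv4.3 (*Kcnd3*) that bind the calcium-binding protein KChIP2 (*Kcnip2*) and can bind the dipeptidyl peptidase-like protein DPP6 (*Dpp6*). KChIP2 promotes the arrival of Kv4 channels at the cell surface and alters their inactivation. The slow component of Ito flows through Kv1.4 (*Kcna4*), the ultrarapid current, IKur, flows largely through Kv1.5 (*Kcna5*), and Kv1 channels can carry cytoplasmic Kvβ subunits. Mouse atrial action potentials are short, and these currents carry much of their repolarization.

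The labels and libraries were checked before the comparison. *Notch1*, from which the transgene derives, had 108 to 131 normalized CPM (depth-scaled counts with TMM factors applied) in the controls and 2975 to 4077 in the iNICD libraries. Library totals were 21555678 to 26902478 counts in the controls and 21432632 to 27182038 in the iNICD libraries. Control replicate 5, a male, stood apart from the other controls: it lay at -77.4 on the first principal component, against -20.2 to 7.98 for the other 5, and its TMM scaling factor was 0.863 against 0.973 to 1.06 for the other 11 libraries. The fold changes and ratios of the channel genes described here are therefore also given without it, while marker lists and orders of level rest on all 12 libraries. Among markers of the tissue, 4 of 7 atrial cardiomyocyte genes were lower in iNICD by edgeR's quasi-likelihood test, beside 1.34% of all genes tested. Their log2 fold changes were -2.33 for *Nppa*, -0.75 for *Myl4*, -0.64 for *Sln* and -0.54 for *Myl7*. *Gja5*, *Bmp10* and *Kcnj3* did not pass (edgeR adjusted p = 0.593, 0.353 and 0.600). The 7 genes summed to 35072 to 44202 normalized CPM in the controls and 9763 to 17068 in iNICD, with medians of 37997 and 14549. The highest control sum was that of control replicate 5. *Nppa* made up most of the sum in the controls, with a mean of 24221 in control and 4821 in iNICD. Of 5 genes shared by all cardiomyocytes 1 was lower, beside the same 1.34% of all genes tested. This was *Tnnt2* at -0.44, while *Myh6*, from whose promoter the transactivator is driven, had a log2 fold change of -0.03. The 5 summed to 55081 to 69264 normalized CPM in the controls and 48595 to 57491 in iNICD, with medians of 57347 and 52473. Here too the highest control sum was that of control replicate 5. Of the ventricular markers, *Irx4* was at 0 counts in every library and *Myl2* at 0.231 to 3.22 normalized CPM. In each group *Myh7* was at 958 to 2230 in 4 libraries and at 13.1 to 29.6 normalized CPM in the other 2. No tested gene changed in the lists for smooth muscle, skeletal muscle, neurons, Schwann cells, fibroblasts, endothelium, endocardium, macrophages, lymphocytes, adipocytes or epicardium. Most genes were too low to be tested in 4 of these lists. The tested genes there were 1 of 7 for neurons, 1 of 5 for lymphocytes, 1 of 4 for adipocytes and 2 of 7 for skeletal muscle.

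The start regions of the 3 Kv4 genes on which the results turn are shown because the iNICD animals express an activated Notch receptor, which acts at DNA through the factor RBPJ. Each run holds 250 bases before and 50 bases after the start site in RefSeq (GRCm38.p6), read along the gene's strand. Capitals mark TGGGAA, the core bound by RBPJ, or CACGNG, a site class bound by Hes and Hey repressors, on either strand. The *Kcnip2* run is chr19:45816014-45816313 on the minus strand, the *Kcnd3* run is chr3:105451640-105451939 on the plus strand and the *Kcnd2* run is chr6:21215096-21215395 on the plus strand. The *Kcnd3* and *Kcnd2* runs end before the first base of these genes in the GENCODE M21 annotation, 105452330 and 21215503. Their motif positions therefore hold for the RefSeq start sites only.
Kcnip2: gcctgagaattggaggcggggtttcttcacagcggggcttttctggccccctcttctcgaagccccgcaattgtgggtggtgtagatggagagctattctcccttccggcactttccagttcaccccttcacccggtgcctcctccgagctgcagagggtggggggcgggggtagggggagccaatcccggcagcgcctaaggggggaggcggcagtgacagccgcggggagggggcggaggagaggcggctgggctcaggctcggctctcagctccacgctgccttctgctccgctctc
Kcnd3: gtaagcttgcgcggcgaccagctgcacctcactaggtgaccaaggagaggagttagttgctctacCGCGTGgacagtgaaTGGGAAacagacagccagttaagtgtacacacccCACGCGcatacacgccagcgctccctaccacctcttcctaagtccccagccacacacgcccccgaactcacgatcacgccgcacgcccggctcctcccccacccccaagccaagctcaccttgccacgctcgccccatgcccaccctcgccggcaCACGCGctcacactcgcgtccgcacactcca
Kcnd2: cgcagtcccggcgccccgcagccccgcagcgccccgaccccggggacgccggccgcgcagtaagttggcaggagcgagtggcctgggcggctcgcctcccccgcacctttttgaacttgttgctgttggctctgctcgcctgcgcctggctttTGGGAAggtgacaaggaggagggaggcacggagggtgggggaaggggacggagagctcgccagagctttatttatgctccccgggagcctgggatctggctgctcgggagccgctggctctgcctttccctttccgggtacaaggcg

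The *Kcnip2* run held neither motif. The *Kcnd3* run held TGGGAA at base -170 from the start and CACGNG at bases -185, -136 and 19, counted to the motif's first base with the start base as 0, and no match overlapped another. The *Kcnd2* run held TGGGAA at base -97 and no CACGNG. Among the 15 start sites that RefSeq lists for the 9 genes, 6 held TGGGAA and 5 held CACGNG. Over all 32851 promoter runs of this length, 25.6% held TGGGAA and 27.5% held CACGNG. These are matches of letters, and no binding was measured.

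Of the 9 genes, 8 passed the expression filter of more than 1 CPM in at least 6 libraries and were tested among 13541 genes. At the threshold of 0.05 on the Benjamini-Hochberg adjusted p of edgeR, 1 was higher in iNICD (*Kcnd3*) and 1 was lower (*Kcnip2*). Over all genes tested 4.12% changed, with 2.78% higher and 1.34% lower. The other 6 did not pass. The median log2 fold change was 0.12 over the 8 genes and -0.01 over all genes tested, with 5 positive and 3 negative values among the 8. For none of the 8 did all 6 iNICD libraries lie above all 6 controls, as 2.58% of all genes did, and for none did all 6 lie below, as 1.25% did.

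**Figure D1:**
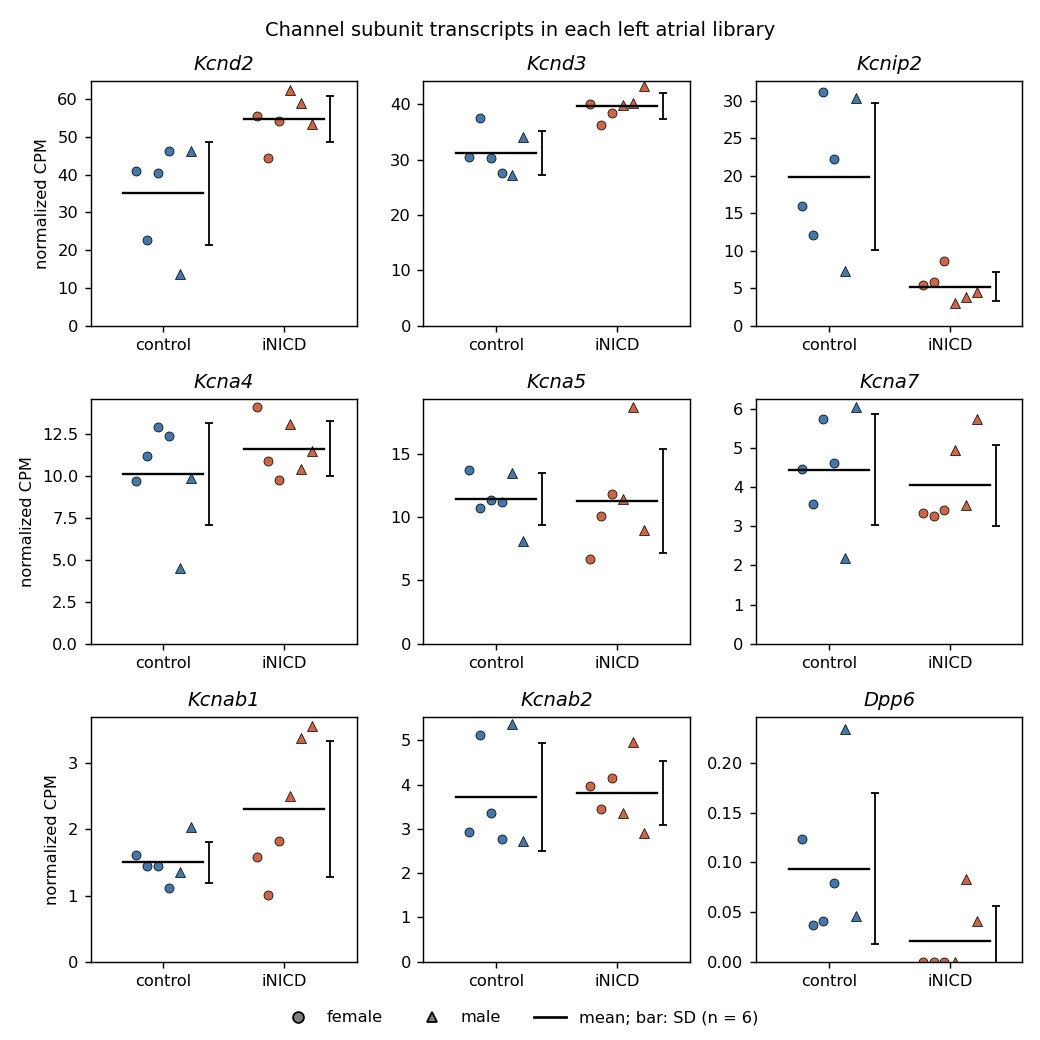
Normalized CPM of the 9 genes in each LA library, control on the left of each panel and iNICD on the right, with the mean as a line and the SD as a bar (n = 6 per group), circles for females and triangles for males. *Kcnip2* lay at 2.99 to 8.61 in iNICD, with 5 of 6 libraries below all controls, and *Kcnd2* and *Kcnd3* each had 5 of 6 iNICD libraries above all controls.

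*Kcnip2*, the gene for KChIP2, lies on chromosome 19 from 45791839 to 45816061 on the minus strand (GRCm38, GENCODE M21) and is annotated with 11 blocks of exon sequence. Its normalized CPM in the controls was 7.25 at the lowest, 19.1 at the median and 31.2 at the highest. In iNICD the lowest was 2.99, the median 4.94 and the highest 8.61. Every iNICD library lay below 5 of the 6 controls, and 5 of the 6 lay below all of them. The exception was iNICD replicate 3, which exceeded control replicate 5. These levels rested on 155 to 753 counts per control library and 79 to 236 per iNICD library. The mean was 19.8 ± 9.77 in control and 5.18 ± 1.96 in iNICD (SD, n = 6 per group), or 0.262 of the control level by the fit. *Kcnip2* thus fell by 1.93 on the log2 scale (SE 0.35, edgeR adjusted p = 0.00773), and permuting the libraries gave a two-sided exact p of 0.00433.

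Control replicate 5, at 7.25, was the lowest control for *Kcnip2*. Without it the control mean was 22.4 ± 8.47 normalized CPM, all 6 iNICD libraries lay below the remaining controls, and the log2 fold change was -2.10 (edgeR adjusted p = 0.00116), in a fit where 5.90% of all genes changed. The share of all genes whose iNICD libraries all lay below these remaining controls was not counted. In the fit of all 12 libraries 4 of 7 atrial cardiomyocyte markers fell, and 1 of the 5 shared cardiomyocyte markers fell, beside 1.34% of all genes tested. The median log2 fold change of those 5 was -0.22, with *Actc1* at -0.46, *Tnnt2* at -0.44, *Tnni3* at -0.22, *Myh6* at -0.03 and *Ryr2* at 0.07. The part of the marker changes in the fall of *Kcnip2* was not tested. In bulk tissue, fewer cells of a type and less RNA per cell cannot be told apart. Controls varied widely among themselves for *Kcnip2*, with a coefficient of variation of 49.2% against 12.7% for *Kcnd3*. The 2 controls with low *Myh7* had 16.0 and 12.1 normalized CPM of *Kcnip2*, and the 2 such iNICD libraries had 5.78 and 4.51. The iNICD values lay within the range of the others of their group. Those of the controls lay below 31.2, 22.2 and 30.4 in 3 of the other 4 controls and above control replicate 5.

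The iNICD libraries had the lower *Kcnip2* levels in each sex. Female controls spanned 12.1 to 31.2 normalized CPM and female iNICD libraries 5.36 to 8.61. The male controls were at 7.25 and 30.4, and the male iNICD libraries at 2.99 to 4.51. Within each sex the groups did not overlap, with only 2 males among the controls. The share of all genes that separated in this way within a sex was not counted. Fitted within each sex, the log2 fold change was -1.62 in females (SE 0.34, edgeR adjusted p = 0.0468) and -2.32 in males (SE 0.60, edgeR adjusted p = 0.602, with 2 control and 3 iNICD libraries). The difference between the sexes was -0.69 with a standard error of 0.69 (edgeR interaction term, adjusted p = 0.916).

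*Kcnd3*, the gene for Kv4.3, lies on chromosome 3 from 105452330 to 105674002 on the plus strand. Control libraries had 27.3 normalized CPM at the lowest, 30.4 at the median and 37.5 at the highest. The iNICD libraries had 36.2, 39.9 and 43.4. All but 1 of the 6 iNICD libraries were above every control, and the overlap came from control replicate 2 at 37.5 and iNICD replicate 2 at 36.2. *Kcnd3* rose from a mean of 31.2 ± 3.95 in control to 39.7 ± 2.36 in iNICD (SD, n = 6 per group), 1.27 times the control level. On the log2 scale this was 0.35 (SE 0.08, edgeR adjusted p = 0.0331, exact permutation p = 0.00433). This call was close to the threshold: it held in 4 of the 12 fits that left out 1 library each, with adjusted p from 0.00904 to 0.0779 and log2 fold changes from 0.31 to 0.40. It was lost without control replicate 1, 3 or 4 or iNICD replicate 1, 3, 4, 5 or 6, and held without control replicate 5 (0.31, edgeR adjusted p = 0.0364). It was also lost with library totals alone as scaling and with no expression filter (edgeR adjusted p = 0.0600 and 0.0579). *Kcnd3* shares 165 exon bases with the antisense transcript *Kcnd3os*, which had 5 to 22 counts per library against 583 to 1059 for *Kcnd3*.

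*Kcnd2*, the gene for Kv4.2, lies on chromosome 6 from 21215503 to 21729805 on the plus strand. The 6 controls had 41.1, 22.6, 40.5, 46.2, 13.8 and 46.4 normalized CPM in the order of replicates 1 to 6. The iNICD libraries had 55.6, 44.4, 54.3, 62.4, 58.9 and 53.5. For 5 of the 6 iNICD libraries the value was above every control, and the controls were the more spread, with replicates 2 and 5 far below the other 4. The means were 35.1 ± 13.6 and 54.8 ± 6.11 normalized CPM (SD, n = 6 per group). With a log2 fold change of 0.64 (SE 0.25), *Kcnd2* did not pass over all genes (edgeR adjusted p = 0.188), while the exact permutation p of this single gene, unadjusted, was 0.00649. Without control replicate 5 the log2 fold change was 0.48 (edgeR adjusted p = 0.110), and it passed in none of the 12 fits with 1 library left out.

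The accessory and pore transcripts of the Kv4 channels were also set against each other within each library, as a ratio of counts per kilobase of exon that does not depend on the scaling of the library. For *Kcnip2* over the sum of *Kcnd2* and *Kcnd3*, the controls had 0.412, 0.420, 0.812, 0.540, 0.378 and 0.695. The iNICD libraries had 0.103, 0.134, 0.170, 0.0529, 0.0708 and 0.0871. The groups did not overlap, and the lowest control, replicate 5, lay above the highest iNICD library. The mean ratio was 0.543 ± 0.176 in control and 0.103 ± 0.0431 in iNICD (SD, n = 6 per group), a log2 difference of -2.44. The exact permutation p was 0.00216, the smallest that 6 against 6 libraries allow. The log2 difference was -2.54 without control replicate 5. The ratio is built from the *Kcnip2*, *Kcnd2* and *Kcnd3* values given above and is not independent of them, and *Kcnd2*, which did not pass on its own, makes up most of the mean denominator in both groups.

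**Figure D2:**
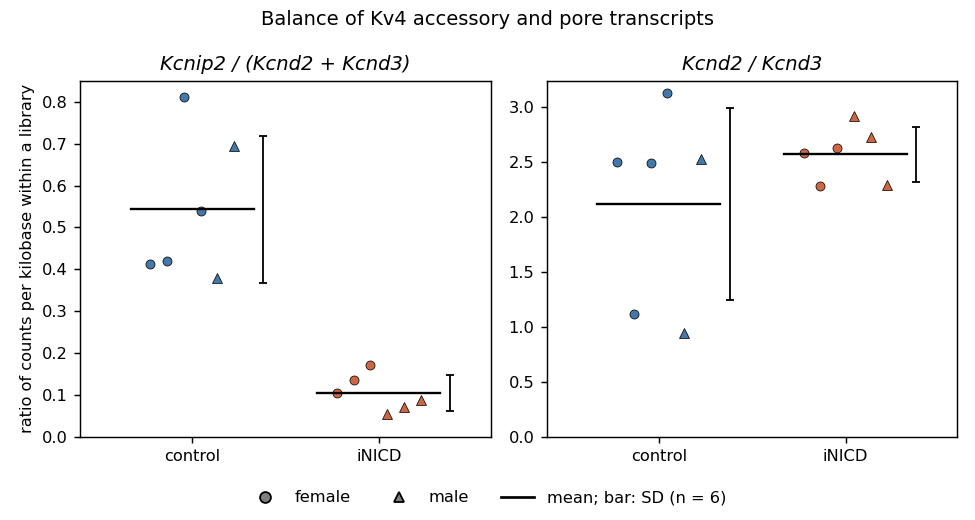
Ratios of counts per kilobase within each library, *Kcnip2* over *Kcnd2* plus *Kcnd3* on the left and *Kcnd2* over *Kcnd3* on the right, with means as lines and SDs as bars (n = 6 per group). On the left the controls lay at 0.378 to 0.812 and the iNICD libraries at 0.0529 to 0.170, and on the right controls 2 and 5 lay at 1.12 and 0.942 while the other 10 libraries lay at 2.28 or above.

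The balance of the Kv4 pore transcripts was compared in the same way. *Kcnd2* over *Kcnd3* was 2.50, 1.12, 2.49, 3.13, 0.942 and 2.53 in the controls and 2.58, 2.28, 2.63, 2.92, 2.73 and 2.29 in iNICD. Of the 6 controls 3 lay among the iNICD libraries, replicate 4 lay above all of them, and replicates 2 and 5 lay below. The means were 2.12 ± 0.878 and 2.57 ± 0.252 (SD, n = 6 per group), a log2 difference of 0.41 that did not exceed the spread between libraries (exact permutation p = 0.318) and was 0.20 without control replicate 5.

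*Dpp6*, on chromosome 5 from 26817203 to 27727505 on the plus strand, was close to undetected. The 6 control libraries held 3, 1, 1, 2, 5 and 1 counts, 13 in all, and the iNICD libraries held 0, 0, 0, 0, 2 and 1, 3 in all. It did not pass the filter and no fold change is given at this depth. The unadjusted exact permutation p over libraries was 0.0238. Its relative *Dpp10*, which encodes another accessory subunit of Kv4, had at most 3 counts in any library.

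The Kv1 pore subunit genes did not pass the test. *Kcna5*, the gene for Kv1.5, is a gene of a single exon on chromosome 6 from 126532551 to 126535412 on the minus strand. Controls had 8.10, 11.2 and 13.7 normalized CPM at the lowest, median and highest, and iNICD libraries had 6.66, 10.7 and 18.7. The iNICD range enclosed the control range at both ends. The means were 11.4 ± 2.06 and 11.2 ± 4.08 (SD, n = 6 per group), with a fitted log2 difference of -0.02 (SE 0.21, edgeR adjusted p = 0.971) whose sign changed with the library left out, from -0.23 to 0.09, and which was 0.03 without control replicate 5.

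*Kcna4*, the gene for Kv1.4, lies on chromosome 2 from 107290639 to 107298502 on the plus strand. Its normalized CPM was 4.49, 10.6 and 12.9 in the controls at the lowest, median and highest, and 9.78, 11.2 and 14.1 in iNICD. The lowest value was that of control replicate 5, and the other 5 controls, from 9.69, overlapped with iNICD. *Kcna4* had a log2 fold change of 0.20 (SE 0.20, edgeR adjusted p = 0.644), and 0.05 without control replicate 5.

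*Kcna7*, the gene for Kv1.7, lies on chromosome 7 from 45405653 to 45409763 on the plus strand. Controls had 2.20, 4.55 and 6.06 normalized CPM at the lowest, median and highest, and iNICD libraries had 3.26, 3.49 and 5.74, all within the control range. *Kcna7* had a log2 fold change of -0.14 (SE 0.24, edgeR adjusted p = 0.811). Without control replicate 5, again the lowest, it was -0.27 (edgeR adjusted p = 0.493), and 4 of the 6 iNICD libraries lay below the remaining controls. Female controls were at 3.58 to 5.75 and female iNICD libraries at 3.26 to 3.43, without overlap (log2 fold change -0.46, SE 0.19, not past the threshold), while the males overlapped (log2 fold change 0.19, edgeR adjusted p = 0.922). The share of all genes without overlap in females was not counted. The difference between the sexes of 0.66 (SE 0.48) did not pass (edgeR interaction term, adjusted p = 0.916).

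Of the Kvβ genes, *Kcnab1* lies on chromosome 3 from 65109384 to 65378223 on the plus strand and *Kcnab2* on chromosome 4 from 152390742 to 152477871 on the minus strand. *Kcnab1* had 1.11, 1.44 and 2.04 normalized CPM at the lowest, median and highest in the controls and 1.01, 2.16 and 3.57 in iNICD, from 23 to 87 counts per library. The 3 iNICD libraries above all controls were the 3 males, at 2.50, 3.39 and 3.57, whereas the female iNICD libraries lay at 1.01 to 1.82, next to the female controls at 1.11 to 1.61. Over both sexes the log2 fold change was 0.63 (SE 0.29, edgeR adjusted p = 0.282), and 0.60 without control replicate 5 (edgeR adjusted p = 0.319). It was 0.08 (SE 0.26) in females and 0.88 (SE 0.33) in males, and the difference of 0.81 (SE 0.40) was not past the threshold (edgeR interaction term, adjusted p = 0.916). Its unadjusted p of 0.0699 from the edgeR model was the lowest of the 8 genes for this term. Over all genes 0% passed for the interaction, with 501 genes at an unadjusted p under 0.05. *Kcnab1* shares 201 exon bases with the antisense transcript *A330015K06Rik*, which had at most 2 counts in any library.

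*Kcnab2* had 2.73, 3.14 and 5.38 normalized CPM at the lowest, median and highest in the controls and 2.91, 3.71 and 4.97 in iNICD, all within the control range. Its log2 fold change was 0.03 (SE 0.21, edgeR adjusted p = 0.952). Control replicate 5, lowest for *Kcnd2*, *Kcnd3*, *Kcnip2*, *Kcna4* and *Kcna7*, was highest here, and without it the log2 fold change of *Kcnab2* was 0.17 (edgeR adjusted p = 0.721).

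Levels of different genes were compared per kilobase of exon. In control LA the order of mean normalized CPM per kilobase was *Kcnd2* (6.81 ± 2.64), *Kcnip2* (5.71 ± 2.81), *Kcna5* (3.99 ± 0.720), *Kcnd3* (3.25 ± 0.412), *Kcna4* (2.09 ± 0.627), *Kcna7* (2.04 ± 0.653), *Kcnab2* (0.666 ± 0.218) and *Kcnab1* (0.175 ± 0.0361). In iNICD the order was *Kcnd2* (10.6 ± 1.19), *Kcnd3* (4.14 ± 0.246), *Kcna5* (3.93 ± 1.43), *Kcna4* (2.41 ± 0.339), *Kcna7* (1.85 ± 0.479), *Kcnip2* (1.49 ± 0.564), *Kcnab2* (0.682 ± 0.130) and *Kcnab1* (0.269 ± 0.119), each SD over 6 libraries. *Kcnip2* thus stood at the second place in control and at the sixth in iNICD, and *Kcnd2* stood at the top of both.

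**Figure D3:**
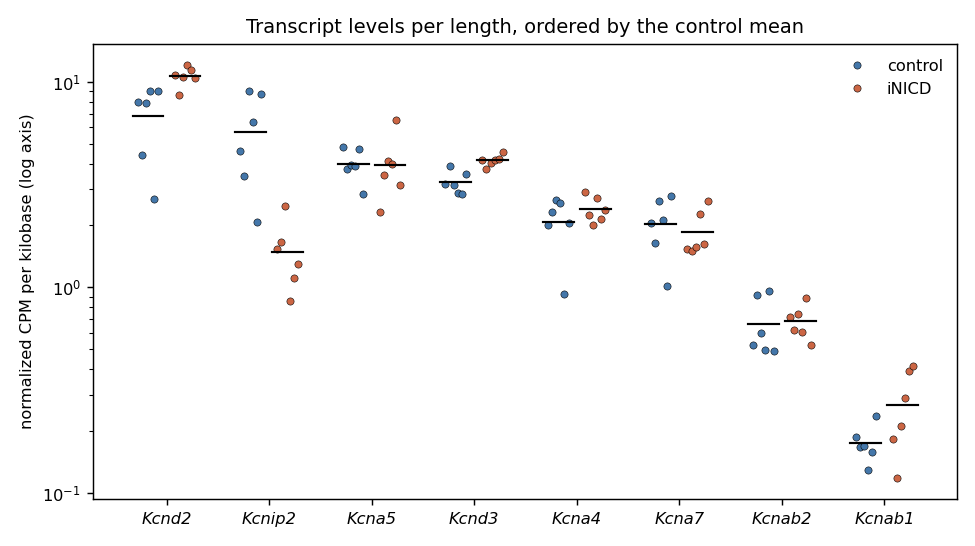
Normalized CPM per kilobase of exon for the 8 tested genes on a log axis, ordered by the control mean, with a point for each library and the group mean as a line. *Kcnip2* went from 5.71 in control, next to *Kcnd2* at 6.81, to 1.49 in iNICD, below *Kcna7* at 1.85, and the group means of the other 7 genes lay closer to each other than those of *Kcnip2*.

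Neighbours in these orders were compared within libraries by exact permutation of signs, 14 comparisons in all. In control, *Kcnd3* exceeded *Kcna4*, *Kcna7* exceeded *Kcnab2* and *Kcnab2* exceeded *Kcnab1* in 6 of 6 libraries. In iNICD, *Kcnd2* exceeded *Kcnd3*, *Kcnip2* exceeded *Kcnab2* and *Kcnab2* exceeded *Kcnab1* in 6 of 6. Each of these had an exact p of 0.0312, the smallest that 6 libraries allow, and 0.0729 after Benjamini-Hochberg adjustment over the 14, and none passed. The gap from *Kcnd2* to the next gene was 0.31 ± 0.34 on the log2 scale in control, with *Kcnip2* next and 5 of 6 libraries in this order, and 1.36 ± 0.14 in iNICD, with *Kcnd3* next. *Kcna4* and *Kcna7* were not separated in control (log2 difference 0.03 ± 0.33), nor were *Kcnip2* and *Kcna5* (0.36 ± 1.02) there. In iNICD, *Kcna7* exceeded *Kcnip2* in 3 of 6 libraries (0.36 ± 0.77) and *Kcnd3* exceeded *Kcna5* in 4 of 6 (0.15 ± 0.51), so that the place of *Kcnip2* next to *Kcna7* is an order of means only.

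Other voltage-gated potassium channel genes were described from wider lists. Of 35 further pore and silent subunit genes, 14 were tested, 1 was higher in iNICD and 0 were lower, beside 2.78% and 1.34% of all genes tested, with a median log2 fold change of 0.36 and a range from -0.97 to 1.16. The gene that rose was *Kcnq1*, which encodes the pore of the slow delayed rectifier, at 77.1 ± 17.2 in control and 172 ± 22.8 in iNICD (normalized CPM, SD, n = 6 per group; log2 fold change 1.16, SE 0.15, edgeR adjusted p = 5.85e-04). *Kcnd1*, the remaining Kv4 gene, was at 1.92 ± 0.234 and 1.90 ± 0.341 (log2 fold change -0.02, edgeR adjusted p = 0.965). *Kcnc1*, a Kv3 gene, had at most 11 counts and was not tested. Of 10 further accessory subunit genes with a row in the count table, 2 were tested, *Kcnip3* at a log2 fold change of 0.21 and *Kcne4* at -0.82, and neither passed in edgeR or DESeq2 (edgeR adjusted p of 0.612 and 0.298).

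**Figure D4:**
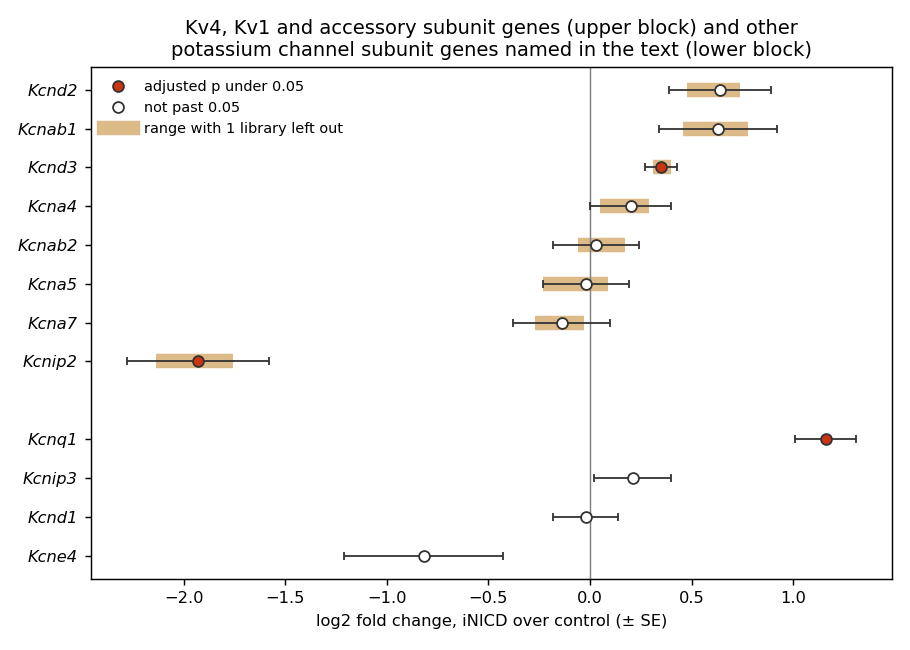
Log2 fold changes of iNICD over control with standard errors for the 8 tested Kv4, Kv1 and accessory subunit genes (upper block, with the range over 12 fits without 1 library as a bar) and for *Kcnq1*, *Kcnd1*, *Kcnip3* and *Kcne4* (lower block). *Kcnip2* at -1.93, *Kcnd3* at 0.35 and *Kcnq1* at 1.16 passed an adjusted p of 0.05, and the bars of *Kcna5* and *Kcnab2* cross 0.

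Genes of proteins that bind, anchor or modify Kv4 and Kv1 channels formed a further list. All 19 were tested, and 1 was higher, *Ank3* (2.78% of all genes tested were higher), which encodes the membrane adaptor ankyrin-G, at 167 ± 13.7 and 211 ± 17.7 normalized CPM (SD, n = 6 per group; log2 fold change 0.34, SE 0.07, edgeR adjusted p = 0.0200). The median of the 19 was 0.05. Of 17 transcription factors known to act on genes of Ito, 16 were tested and 1 was lower, beside 1.34% of all genes tested: *Tbx5*, a T-box factor of the atrium, was at 428 ± 82.4 in control and fell to 268 ± 24.8 in iNICD (log2 fold change -0.67, SE 0.12, edgeR adjusted p = 0.00494). The median of the 16 was 0.04. With counts of 1 in each list, these shares are read as no result about the lists. *Irx4* was at 0 in all libraries. DESeq2 called 2 of the channel genes, 3 of the partners and 3 of the factors, in a fit where 7.82% of all genes tested changed.

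The variation between animals of a group was compared between the 8 genes. Deviations of log2 normalized CPM from the group means were correlated over the 12 libraries in 28 pairs. The highest was *Kcnd2* with *Kcna7* (Pearson r = 0.81, permutation p = 0.00740, adjusted p = 0.104; Spearman rho = 0.65), and the lowest *Kcna7* with *Kcnab2* (r = -0.79, permutation p = 0.00488, adjusted p = 0.104; rho = -0.73). No pair passed the adjustment over 28. Without the 2 libraries farthest on the x axis r was 0.55 and -0.65, and without control replicate 5 it was 0.56 and -0.68. For *Kcnip2*, r with *Kcnd2* was 0.68 over 12 libraries (permutation p = 0.0449, adjusted p = 0.252), 0.34 without control replicate 5 and 0.21 without the 2 farthest libraries, so that it rested on those libraries.

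The tested gene most like each of the 8 by Pearson r of these deviations over 12 libraries was *Acss3* for *Kcnd2* (0.98), *Fam13a* for *Kcnd3* (0.87), *Syt17* for *Kcnip2* (0.92), *Antxr2* for *Kcna4* (0.96), *Zfp24* for *Kcna5* (0.91), *Camk2a* for *Kcna7* (0.97), *Lad1* for *Kcnab1* (0.93) and *Ostc* for *Kcnab2* (0.94). The next ones were *Pitpnc1* and *Trp63* for *Kcnd2* (both 0.97), *Invs* (0.85) and *Trim46* (0.83) for *Kcnd3*, *Tedc2* and *Carf* for *Kcnip2* (both 0.92), and *C230037L18Rik* (0.95) and *Zfp395* (0.94) for *Kcna4*. For the other 4 they were *Ndufab1* (0.86) and *Nr4a3* (0.85) for *Kcna5*, *Rgma* (0.97) and *Rnf123* (0.96) for *Kcna7*, *Hba-a2* and *Ntan1* for *Kcnab1* (both 0.91), and *Cgas* (0.94) and *Pdlim3* (0.93) for *Kcnab2*. Of these 24 genes 3 stayed among the 3 highest when control replicate 5 was left out.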

How the data were processed

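LA RNA was depleted of ribosomal RNA and sequenced by the authors as stranded 50-bp single-end libraries. The authors deposited raw read counts for each gene name, without normalization, for 12 libraries, with a length in bases per gene as a further column. The submitters' processing notes name cutadapt, STAR 2.4.2a, Subread, featureCounts and edgeR on mm10. The study's methods describe a route with TopHat2 and HTSeq and another with STAR and featureCounts, and the table names neither. It holds 37 mitochondrial names, and whether counting used strand is not given in the sources used here. The length column was the same as the joined exons of GENCODE M21 for the 9 genes and was used as kilobases.

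Groups, replicate numbers and sex came from sample titles, genotypes and descriptions. Titles and descriptions exchange the numbers of controls 4 and 5, and title numbers are used. No 2 libraries were copies. Genes with CPM over 1 in at least 6 libraries were tested with edgeR 4.0.16 (TMM, quasi-likelihood, two-sided, Benjamini-Hochberg over 13541 genes, threshold 0.05) in R 4.3.3, after a test on simulated counts. Normalized CPM have the TMM factor in the library total. Single genes and ratios were permuted exactly over libraries on the log2 scale, with a prior count of 0.5 for CPM, and correlations used a prior count of 2. DESeq2 1.42.0, the exact test of edgeR, other normalizations and filters, sex as covariate, each sex, replicate blocks, robust dispersions and each library left out were alternatives. Group values without control 5 and correlations within groups were added after seeing the data. The 9 genes and all lists were chosen with earlier results of these data known. The named genes are the 9, changed members of the lists (up to 5 each way) with Kcnd1, Kcnc1 and Dpp10, the 3 genes most like each of the 8 and Notch1; markers and Kcnip3 and Kcne4 are named in addition. A further gene of this rule is not reported here.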

Additional observations from a re-analysis of the deposited data

How the results depend on the processing

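The lower level of *Kcnip2* passed in 11 of 12 alternatives and in all 12 fits with 1 library left out (log2 fold change -2.14 to -1.76); in males only it was -2.32 and did not pass (edgeR adjusted p = 0.602), so that 0 of the 8 tested genes were called lower there. *Kcnd3* kept its direction throughout. Its edgeR adjusted p was 0.0600 with library totals alone (log2 fold change 0.37), 0.0579 with no filter (0.34), 0.205 in females only (0.28) and 0.775 in males only (0.41), and the number of genes called higher was 0 in each of these, and 0 or 1 with 1 library left out (log2 fold change of *Kcnd3* 0.31 to 0.40). 

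Same-numbered libraries had correlations of deviations of 0.20, 0.13, -0.11, -0.15, 0.28 and 0.37 by title number and of 0.20, 0.13, -0.11, 0.18, 0.05 and 0.37 by description number. Since not every pair was over 0.1 and the labels name no shared litter or day, the numbers were not taken as pairs, which does not show that they are unrelated. With the title or the description number as a replicate block, *Kcnd3* was at 0.35 and 0.35 (edgeR adjusted p = 0.0721 and 0.0787), and 0 of the 8 tested genes were called higher. With the title number 0 instead of 1 of the channel partners were called. Over all genes 468 and 421 changed. By title number, 5 of the 12 libraries correlated best with the library of their own number in the other group. *Kcnip2* kept its call under both blocks.

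Signs that were not settled were those of *Kcna5* (main -0.02, 0.00 with library totals alone, 0.25 in males only, -0.23 to 0.09 with 1 library left out), *Kcna7* (0.19 in males only, -0.27 to -0.03 with 1 library left out) and *Kcnab2* (-0.13 in males only, -0.06 to 0.17 with 1 library left out). DESeq2 called 2 instead of 1 of the other channel genes, 3 instead of 1 of the partners and 3 instead of 1 of the factors. The ratio of *Kcnip2* to *Kcnd2* plus *Kcnd3* was lower in each sex, from raw counts without length and with each library left out, the alternatives run for it, and in males only its log2 difference was -2.90 with an exact permutation p of 0.100, the smallest that 2 against 3 libraries allow. Of the 24 most like genes, 3 remained without control 5. Over all genes, 558 changed in the main test, 1059 with DESeq2, 8 in males only and 374 to 799 with 1 library left out. The causes were not tested. Few male controls limit the comparisons by sex, and low counts limit *Dpp6* and *Kcnab1*.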

Other observations

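Within the 6 controls alone, *Kcnip2* and *Kcna7* deviated together (Pearson r = 0.98, exact permutation p = 0.00278, Spearman rho = 0.94, r = 0.96 without the 2 farthest libraries), while in the 6 iNICD libraries r was -0.56. *Kcnd2* and *Kcnab2* deviated in opposite directions in the controls (r = -0.95, exact permutation p = 0.00139, r = -0.86 without the 2 farthest libraries), while in iNICD r was 0.28. Over the 56 correlations within groups, both had an adjusted p of 0.0778 by exact permutation and none passed. The difference of the correlations between groups was not tested.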
